A study of Homo sapiens with 8 samples.

Results

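This report describes dnTCF1E ChIP-seq peaks at the 4 human LEF/TCF genes, TCF7, LEF1, TCF7L1 and TCF7L2, and, for contrast, at TCF4, an unrelated E-protein gene with a confusingly similar name. A peak was taken as a member when HOMER, the program that annotated the lists, gave one of these 5 genes as the gene with the nearest transcription start site (TSS). The rule found 21 of the 23433 peaks in 6 lists, 14 at LEF/TCF genes and 7 at TCF4, and used neither the score nor the motifs of a peak. The study expressed FLAG-tagged dnTCF1E, a dominant negative TCF-1 without the β-catenin binding domain, from a doxycycline-inducible construct in DLD-1 colon cancer cells, a line with constitutively high Wnt signalling. One clonal line carried the wild-type protein (dnTCF1EWT) and another the same protein with a mutated C-clamp (dnTCF1Emut), and both were kept in blasticidin and zeocin before induction. Each line was sampled without doxycycline (0 h) and after 2 and 9 h in 1 ug/mL doxycycline, and chromatin was recovered with anti-FLAG beads. The study describes pooling duplicate cultures, and each list was taken here as 1 pooled list per condition, although the labels speak of a first replicate. The values below therefore have no spread between replicates, and no difference between lists could be tested. Because each protein came from its own clone, a difference between proteins and a difference between clones cannot be told apart.

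LEF/TCF proteins bind DNA at the end of the Wnt pathway: with β-catenin they activate target genes, and without it they recruit Groucho/TLE corepressors. Their HMG box recognizes the Wnt response element (WRE), and the C-clamp, present in the E isoforms of TCF-1 and TCF-4, recognizes a GC-rich Helper site. LEF/TCF genes can themselves be Wnt targets, which makes the positions of dnTCF1E at these loci of interest for feedback within the family. TCF4 encodes a basic helix-loop-helix protein that binds E boxes and has no HMG box or C-clamp. The protein that the Wnt field calls TCF-4 is the product of TCF7L2, and RefSeq lists TCF-4 as a synonym of both genes, so the 2 loci are easily confused.

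The WRE counted in the lists is CTTTG, then A or T, again A or T, then C or G. The Helper is ACCGCC or GCCGCC, and the short Helper, which every Helper contains, is ACCG or GCCG. To show these motifs at the members themselves, the 250 bases upstream of a TSS are given below for the windows with a Helper, 1 for each of TCF7, TCF7L1, TCF7L2 and TCF4, and for the 2 windows with a WRE. All are RefSeq sequence of build GRCh38.p14, read 5′ to 3′ in the direction of the gene, with capitals marking a WRE or a Helper on either strand.
TCF7, chr5:134115363-134115612, plus strand, 2 Helpers: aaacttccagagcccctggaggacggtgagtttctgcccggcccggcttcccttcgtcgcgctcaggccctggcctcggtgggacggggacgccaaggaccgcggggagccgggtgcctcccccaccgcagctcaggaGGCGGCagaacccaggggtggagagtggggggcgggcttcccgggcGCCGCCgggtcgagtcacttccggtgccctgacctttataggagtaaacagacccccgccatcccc
TCF7, chr5:134123368-134123617, plus strand, 1 WRE: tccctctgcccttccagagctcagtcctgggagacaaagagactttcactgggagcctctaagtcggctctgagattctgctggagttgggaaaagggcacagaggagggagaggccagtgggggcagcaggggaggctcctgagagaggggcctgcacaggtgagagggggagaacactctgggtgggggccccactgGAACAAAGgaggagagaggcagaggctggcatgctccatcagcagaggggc
TCF7L1, chr2:85133142-85133391, plus strand, 3 Helpers: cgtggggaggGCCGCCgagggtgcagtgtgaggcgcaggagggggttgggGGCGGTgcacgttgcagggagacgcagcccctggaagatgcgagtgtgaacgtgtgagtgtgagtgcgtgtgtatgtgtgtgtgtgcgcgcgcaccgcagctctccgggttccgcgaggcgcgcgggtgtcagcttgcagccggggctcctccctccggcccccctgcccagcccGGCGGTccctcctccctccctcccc
TCF7L2, chr10:112949997-112950246, plus strand, 1 Helper: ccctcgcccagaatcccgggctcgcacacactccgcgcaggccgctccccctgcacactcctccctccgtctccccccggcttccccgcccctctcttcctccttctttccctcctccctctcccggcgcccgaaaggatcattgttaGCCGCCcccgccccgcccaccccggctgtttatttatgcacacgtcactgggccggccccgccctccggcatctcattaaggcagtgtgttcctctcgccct
TCF7L2, chr10:113126383-113126632, plus strand, 1 WRE: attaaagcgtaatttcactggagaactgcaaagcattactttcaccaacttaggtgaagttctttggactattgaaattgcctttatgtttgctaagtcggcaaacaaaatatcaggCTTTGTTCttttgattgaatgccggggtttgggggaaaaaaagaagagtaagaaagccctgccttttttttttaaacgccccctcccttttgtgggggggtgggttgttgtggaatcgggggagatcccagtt
TCF4, chr18:55589812-55590061, minus strand, 3 Helpers: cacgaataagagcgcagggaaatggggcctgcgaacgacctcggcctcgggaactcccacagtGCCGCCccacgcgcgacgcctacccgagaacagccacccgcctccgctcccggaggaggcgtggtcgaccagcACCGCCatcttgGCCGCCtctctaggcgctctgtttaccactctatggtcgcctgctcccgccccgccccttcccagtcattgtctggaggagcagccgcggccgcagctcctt
RefSeq gave 17 such windows for the 5 genes, 2 for TCF7, 1 for LEF1, 1 for TCF7L1, 3 for TCF7L2 and 10 for TCF4. A Helper was present in 4 of the 17 and a WRE in 2, while 35.9% of 35116 human windows of this length held a Helper and 5.56% a WRE. The short Helper was in 13 of the 17 and in 74.2% of all windows. The single LEF1 window had neither a WRE nor a Helper. None of the 21 peaks lay in a promoter, however. The peak closest to a TSS was 3716 bp from it, at TCF4, and the closest at a LEF/TCF gene was 9321 bp upstream of TCF7L1. Peaks centered within 2 kb of a TSS made up 5.96% of the dnTCF1EWT 2 h list, 5.15% of the 9 h list and 2.66% of the dnTCF1Emut 2 h list. All peak coordinates below are of build hg19, which differs from that of the windows above.

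The 4 LEF/TCF genes had 1 listed peak in dnTCF1EWT cells at 0 h, 5 at 2 h and 7 at 9 h. In dnTCF1Emut cells they had 1 peak at 2 h and none at 0 or 9 h. TCF4 had no peak in dnTCF1EWT cells at 0 or 2 h and 3 at 9 h, and in dnTCF1Emut cells it had 4 at 2 h and none at 0 or 9 h. The lists themselves differed in size, with 1907, 5585 and 12996 peaks for dnTCF1EWT and 708, 1883 and 354 for dnTCF1Emut at 0, 2 and 9 h. Of the 5 genes, 3 had a peak in the dnTCF1EWT 2 h list, 4 in the dnTCF1EWT 9 h list and 2 in the dnTCF1Emut 2 h list, against 15.9%, 30.8% and 5.43% of 20056 protein-coding gene symbols. Gene by gene, TCF7L2 and TCF4 each had 7 peaks over all lists, TCF7L1 had 5, and TCF7 and LEF1 had 1 each. By position 13 of the 21 peaks were intronic and 8 intergenic, and the 21 covered 19 distinct regions. The study reports that the sites of both proteins lay mainly in introns and between genes. Shares of these classes over whole lists were not taken here. No peak inside a transcript of the 5 genes was given to another gene.

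**Figure D1:**
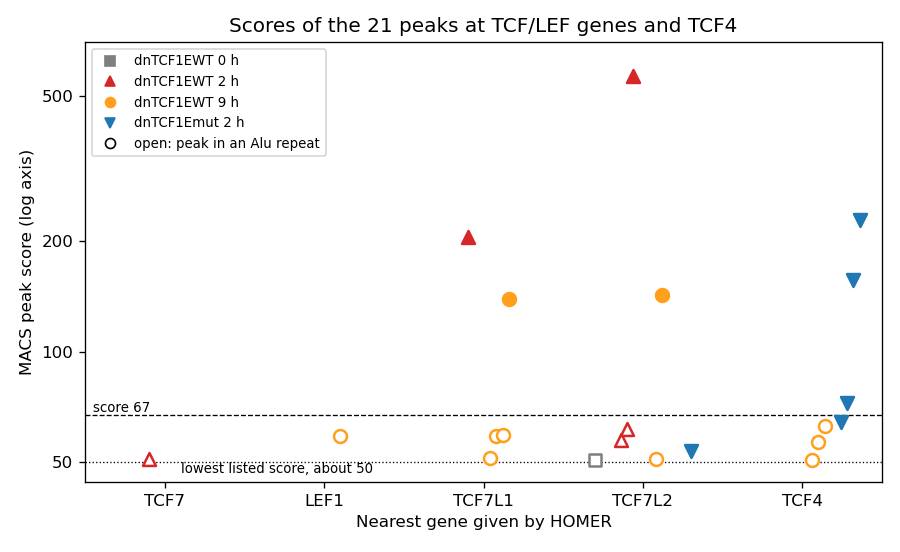
MACS peak score (log axis) of the 21 peaks, grouped by nearest gene, with 1 point per peak, color and shape for the list, and open symbols for peaks in an Alu repeat. In the dnTCF1EWT lists only TCF7L1 and TCF7L2 have points above a score of 67, from 138.85 to 565.45. At TCF4 the points above 67 are all from the dnTCF1Emut 2 h list, where 1229 of all 1883 peaks exceed 67.

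In dnTCF1EWT cells a few member peaks were strong and many lay near the lower end of the lists, as did most peaks of those lists. The score is the one MACS gave; it rises with the evidence for enrichment over input, was not scaled for sequencing depth, and is about 50 for the weakest peaks listed. Of the 16 dnTCF1EWT peaks, 12 were centered in an Alu, a short and very abundant repeat, by HOMER's annotation of the peak center, and these scored between 50.63 and 62.6. The other 4 scored from 138.85 to 565.45, with nothing between the 2 sets. They were the same 2 regions at 2 and 9 h, 1 in TCF7L2 and 1 in TCF7L1. A score above 67 was reached by 1802 of all 5585 dnTCF1EWT peaks at 2 h and 2649 of all 12996 at 9 h. The LEF/TCF genes had 2 of 5 and 2 of 7 peaks above it, and TCF4 had 0 of 3 at 9 h. Alu peaks made up 48.5% of the whole dnTCF1EWT 2 h list and 76.0% of the 9 h list. Among peaks below a score of 67 the share was 62.2% at 2 h and 80.9% at 9 h, and among peaks of 100 or more it was 2.48% and 11.9%. None of the 5 dnTCF1Emut peaks was in an Alu, in a list where 0.478% were. What part the repeats have in the weak dnTCF1EWT peaks was not tested.

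TCF7L2 encodes TCF-4, a main LEF/TCF of the intestinal crypt and colon. Its strongest peak was in the dnTCF1EWT 2 h list at chr10:114741228-114741713 (hg19), 31461 bp downstream of the TSS in intron 4 of 12, and had a score of 565.45 and rank 76 of 5585. It was listed again at 9 h at chr10:114741270-114741718 with a score of 142.36 and rank 277 of 12996. The 2 peaks shared 444 bp and their centers were 24 bp apart. No 0 h peak and no dnTCF1Emut peak overlapped this region. The nearest peak in the dnTCF1EWT 0 h list was 255831 bp away and the nearest in the dnTCF1Emut 2 h list 111582 bp away. The region held no WRE and no Helper in either list and 2 short Helpers in both, was 45.1% GC at 2 h, and its center was annotated to no repeat.

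TCF7L1 encodes TCF-3, the family member best known as a repressor. Its strongest peak was in the dnTCF1EWT 2 h list at chr2:85381540-85381951 (hg19), 21162 bp downstream of the TSS in intron 3 of 11, with a score of 205.94 and rank 389. At 9 h it was at chr2:85381599-85381943 with a score of 138.85 and rank 290. The 9 h peak lay wholly inside the one at 2 h, with 345 bp shared and the centers 26 bp apart. As at TCF7L2, no 0 h or dnTCF1Emut peak overlapped it, the nearest being 300412 bp away in the dnTCF1EWT 0 h list and 459479 bp away in the dnTCF1Emut 2 h list. The center of the peak was annotated to an L2c element, an old LINE repeat, and held no WRE, no Helper and 3 short Helpers at both times.

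**Figure D2:**
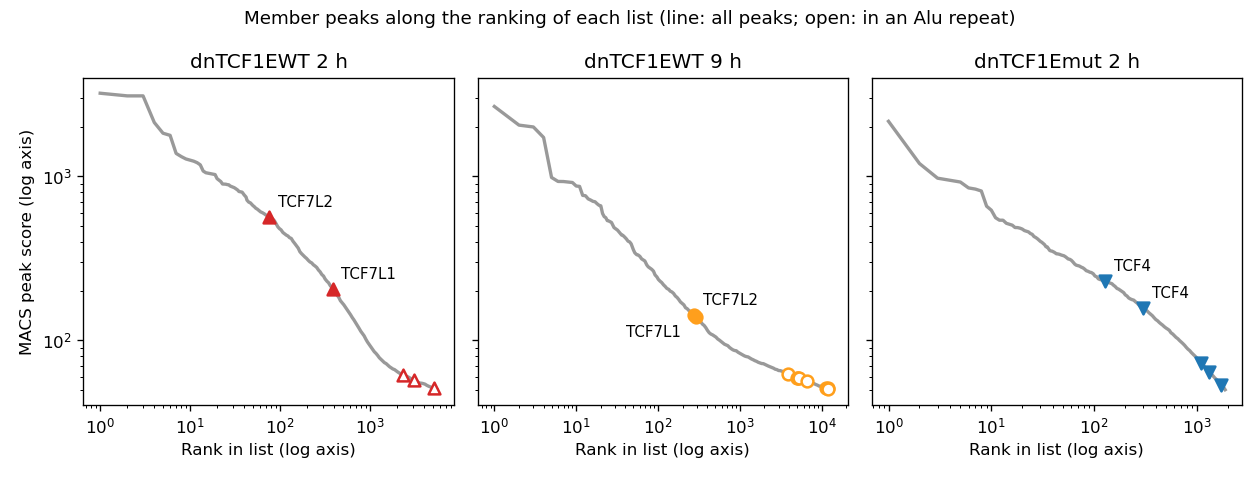
MACS peak score against rank in the list (both log axes) for the 3 lists with 5 or more member peaks, with a gray line for all peaks, filled symbols for members outside Alu repeats and open symbols for members in them. The TCF7L2 and TCF7L1 peaks are well apart at 2 h in dnTCF1EWT cells, at ranks 76 and 389, and next to each other at 9 h, at ranks 277 and 290.

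Between 2 and 9 h the TCF7L2 score was 3.97-fold lower and the TCF7L1 score 1.48-fold lower, log2 ratios of -1.99 and -0.57. Over all 833 regions of the 2 h list that overlapped a 9 h peak the median log2 ratio was -0.33, with quartiles of -1.26 and 0.15. A ratio below that of TCF7L2 was found at 11.8% of them and below that of TCF7L1 at 43.0%. A log2 ratio of -1 or less, as at TCF7L2, was found at 31.2%. No 9 h peak scored below 50.01, so weak 2 h peaks could not show falls as large as that of TCF7L2. These shares were not matched for rank. At rank 76 the 9 h list had a score of 280.88, against 565.45 for TCF7L2 at that rank at 2 h. By rank, TCF7L2 went from 76 to 277 and TCF7L1 from 389 to 290. A better rank at 9 h than at 2 h, as at TCF7L1, was found at 35.4% of the shared regions. With 1 list per time, no size of change could be set against replicate error.

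Both regions persisted to 9 h, and these were 2 of the 5 dnTCF1EWT 2 h member peaks, or 40.0% (exact binomial 95% interval 5.27 to 85.3%, counting error only), against 14.9% of the list. From the other side, 2 of the 10 member peaks at 9 h overlapped a 2 h peak, against 6.47% of that list. Strong peaks persisted more often in general: of the 100 peaks nearest to TCF7L2 in rank at 2 h, 87.0% overlapped a 9 h peak, and of the 100 nearest to TCF7L1, 43.0%. The top 1000 of each list are 17.9% of the peaks at 2 h and 7.69% at 9 h, and held 2 of the 5 and 2 of the 10 member peaks.

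None of the 5 dnTCF1EWT 2 h member peaks overlapped a dnTCF1Emut 2 h peak (exact interval 0 to 52.2%), and 9.44% of the list did. This share too depends on rank. Among the 100 peaks nearest in rank, 56.0% around TCF7L2 and 42.0% around TCF7L1 overlapped a dnTCF1Emut peak. The absence of a WRE from both regions was no rarity at these ranks either, since 40.0% of the 100 peaks around TCF7L2 and 59.0% of those around TCF7L1 had none. In the top 500 the 233 peaks without a WRE overlapped a dnTCF1Emut peak in 39.9% of cases and the 267 with one in 55.8%. Both regions belonged to a set of strong dnTCF1EWT peaks without a WRE and without a dnTCF1Emut peak.

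The remaining TCF7L2 peaks were weak. In the dnTCF1EWT 0 h list, where no dnTCF1E had been induced, 1 peak was centered 287665 bp from the TSS in an AluY, with a score of 50.63 and rank 1787 of 1907. At 2 h there were 2 intronic Alu peaks, 159291 and 134605 bp from the TSS, with scores of 61.28 and 57.18. At 9 h an intronic Alu peak 24346 bp from the TSS scored 50.89, and neither 2 h Alu peak was listed again. The only dnTCF1Emut peak at a LEF/TCF gene was also here, at 2 h, at chr10:114853295-114853760 in intron 5 of 12, with a score of 53.65 and rank 1719 of 1883. It was 143518 bp from the TSS, centered outside any Alu, had 2 short Helpers and no WRE, and lay 8567 bp from the nearest dnTCF1EWT 2 h peak.

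The remaining TCF7L1 peaks were 3 of the dnTCF1EWT 9 h list, all upstream of the gene and in Alu repeats, at -61647, -19686 and -9321 bp from the TSS with scores of 59.34, 58.9 and 51.08. With the intronic peak this made 4 peaks for TCF7L1 at 9 h, a number reached by 5.38% of the 8182 genes with a peak in that list. At a score above 67 the intronic peak alone remained.

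TCF7 encodes TCF-1, the protein from which dnTCF1E was made, and LEF1 encodes the factor often switched on in colon cancer. Neither had a strong peak. TCF7 had 1 peak, in the dnTCF1EWT 2 h list, in an AluSp at -47435 bp, with a score of 50.92 and rank 5160 of 5585. LEF1 had 1 peak, in the dnTCF1EWT 9 h list, in an AluJo in intron 3 of 10, 44163 bp downstream of the TSS, with a score of 58.91 and rank 5066 of 12996. Neither gene had a peak in any dnTCF1Emut list, and no peak lay within the TCF7 gene.

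**Figure D3:**
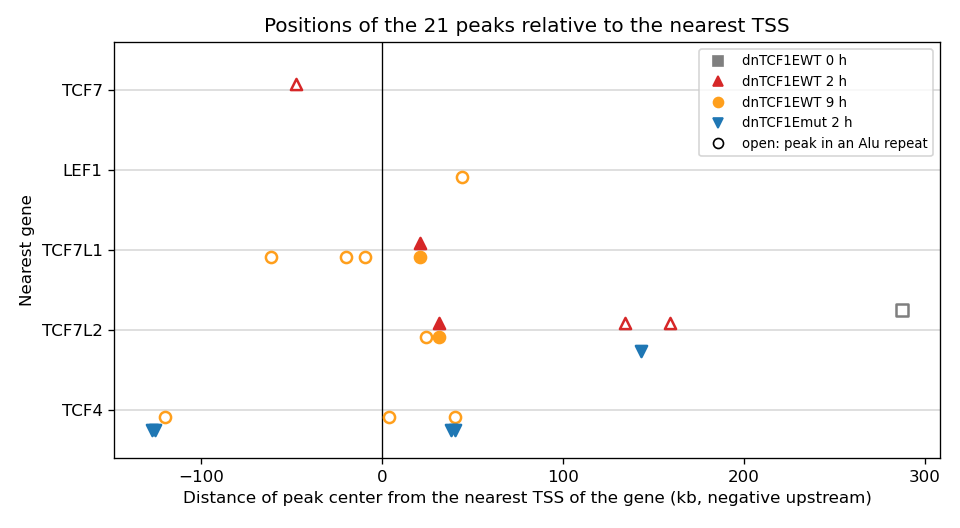
Distance of the center of each of the 21 peaks from the nearest TSS (kb, negative upstream), by gene, with color and shape for the list and open symbols for peaks in an Alu repeat. The filled dnTCF1EWT points of 2 and 9 h coincide at TCF7L1 and at TCF7L2, and the 4 dnTCF1Emut points at TCF4 form 2 close pairs.

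TCF4 had its highest-scoring peaks in dnTCF1Emut cells instead. At 2 h the mutant list had 2 peaks in intron 4 of 12 of a TCF4 transcript, at chr18:52929295-52929907 with a score of 229.5 and rank 129 of 1883, and at chr18:52931290-52931783 with a score of 157.38 and rank 302. The gap between them was 1383 bp, they were 40251 and 38316 bp from the nearest TSS, and each held 1 WRE and no short Helper. A second pair lay upstream of the gene, at chr18:53430253-53430594 and chr18:53428671-53428945, 1308 bp apart. These were at -127235 and -125620 bp from the TSS and held no WRE. Their scores of 72.56 and 64.15 were below the list median of 81.1. With 4 peaks TCF4 was among 1.55% of the 1484 genes with a peak in this list. The TSSs nearest to its peaks in all lists belonged to 3 different TCF4 transcripts, so distances to TCF4 are not all from one point.

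None of the 4 dnTCF1Emut peaks at TCF4 overlapped a peak in another list. The nearest dnTCF1EWT 2 h peak was the same for all 4, between 2015736 and 2516423 bp away. In the dnTCF1Emut 2 h list 12 peaks, or 0.637%, had no dnTCF1EWT 2 h peak within 2 Mb. These 4 were among the 12 but are not independent, since they share that nearest peak. An overlap with a dnTCF1EWT 2 h peak was found for 27.9% of the dnTCF1Emut 2 h list, with a dnTCF1EWT 9 h peak for 13.6%, and with a dnTCF1Emut 9 h peak for 12.4%. The nearest dnTCF1EWT 9 h peak was 5179 bp from the upstream pair. Chromosome 18 held 3.77% of the dnTCF1Emut 2 h list and 2.4% of the dnTCF1EWT 2 h list.

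In dnTCF1EWT cells TCF4 had 3 peaks, all at 9 h, all in Alu repeats, and all between the scores of 50.69 and 62.6. They were at -120214, 40329 and 3716 bp from a TSS. Each had 2 short Helpers and no WRE. Ranks ran from 3821 to 12041 of 12996, so none was in the part of the list where the TCF7L1 and TCF7L2 peaks stood. TCF7L2 and TCF4 thus had the same number of peaks over all lists, but TCF7L2 had its highest scores with the wild-type protein and TCF4 with the mutant. Scores were higher in the dnTCF1Emut 2 h list as a whole, with a median of 81.1. The dnTCF1EWT medians were 59.0 at 2 h and 56.9 at 9 h.

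**Figure D4:**
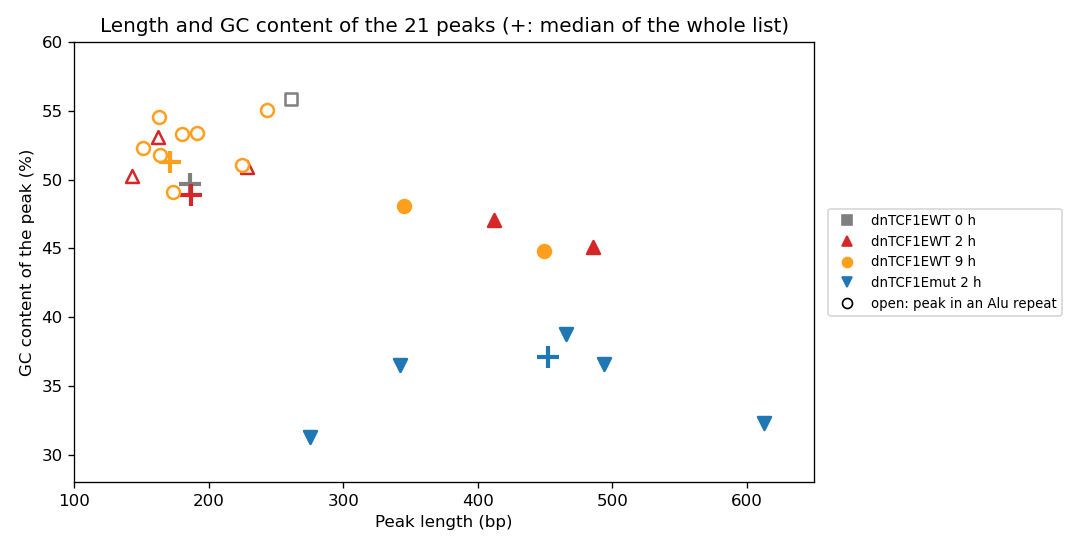
GC content (%) against length (bp) of the 21 peaks, with color and shape for the list, open symbols for peaks in an Alu repeat and crosses for the medians of the 4 whole lists. The 12 Alu peaks are short and GC-rich, the 4 other dnTCF1EWT peaks are longer and below them at 44.8 to 48.1% GC, and the 5 dnTCF1Emut peaks are lowest at 31.3 to 38.8%.

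No dnTCF1EWT member peak held a WRE, 0 of 5 at 2 h and 0 of 10 at 9 h (exact interval 0 to 30.8%), where 16.3% and 6.56% of the lists did. In dnTCF1Emut cells 2 of 5 did at 2 h (exact interval 5.27 to 85.3%), where 36.0% of the list did. With so few peaks these intervals include the shares of the whole lists. The Helper was in none of the 21, and in 7.23% and 4.83% of the dnTCF1EWT lists at 2 and 9 h and 4.35% of the dnTCF1Emut 2 h list. The short Helper was in 10 of the 15 dnTCF1EWT peaks of 2 and 9 h, in the 0 h peak, and in 2 of the 5 dnTCF1Emut peaks. Its share was 54.1% and 55.4% in the dnTCF1EWT 2 and 9 h lists and 38.9% in the dnTCF1Emut 2 h list. All 4 strong dnTCF1EWT peaks held it, but these were 2 regions seen at both times. They were also longer than the list medians of 187 bp at 2 h and 171 bp at 9 h. Alu peaks were 143 to 261 bp long with 49.1 to 55.9% GC, the other dnTCF1EWT peaks 345 to 486 bp, and the dnTCF1Emut peaks 275 to 613 bp. Over whole lists the median GC was 48.9% for dnTCF1EWT at 2 h, 51.3% at 9 h and 37.1% for dnTCF1Emut at 2 h.

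Cofactors of LEF/TCF proteins were read beside the members. Of 23, 9 had a peak in the dnTCF1EWT 2 h list (13 peaks), 15 at 9 h (34 peaks), and 3 in the dnTCF1Emut 2 h list (5 peaks). The shares of all protein-coding gene symbols with a peak in these 3 lists were 15.9%, 30.8% and 5.43%. Many of these cofactor peaks were weak. At 2 h in dnTCF1EWT cells CREBBP, CTBP2, EP300, HIPK2, SMARCA4 and TLE2 had only peaks scoring 66.12 or less. Most cofactor peaks at 9 h were Alu peaks, as were 76.0% of that list. Each 0 h list had 1 cofactor gene with a peak, against 6.15% of protein-coding symbols for dnTCF1EWT and 2.22% for dnTCF1Emut. The dnTCF1Emut 9 h list had none, against 1.11%. Among the first 1000 peaks at 2 h in dnTCF1EWT cells 3 of the 23 had a peak, against 3.26% of protein-coding symbols. TLE1, a Groucho-type corepressor, had a peak of score 513.67 and rank 91 with 1 WRE, which lay 686278 bp from the TSS. It overlapped a dnTCF1Emut 2 h peak of score 313.63, unlike the TCF7L2 and TCF7L1 peaks. TLE1 also had a second peak of rank 590. CTNNB1, the gene of β-catenin, had a peak of score 455.19 and rank 108 with 2 WREs, 225439 bp from its TSS in an intron of ULK4, and this overlapped a dnTCF1Emut 2 h peak of score 72.86. TLE4, another corepressor, had a peak of score 294.76 and rank 229 centered 1753 bp from its TSS, in an exon. Like the strong TCF7L2 and TCF7L1 peaks it had no WRE, several short Helpers (3) and no overlapping dnTCF1Emut peak, and was listed again at 9 h, with a score of 73.22. TLE4 also had 2 dnTCF1Emut 2 h peaks that overlapped no dnTCF1EWT peak at 2 or 9 h. The stronger of these, at chr9:82104509-82105106 and -82071 bp from the TSS, scored 271.64 with rank 82 and held 1 WRE. The other scored 63.35 and held none. Of that whole dnTCF1Emut list, 27.9% overlapped a dnTCF1EWT 2 h peak and 13.6% a 9 h peak.

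TCF7L2 was the only one of the 5 genes with a peak in 3 or more lists. Of 10699 genes with a peak in any list, 1327 had one in 3 or more. The TCF7L2 peaks in the dnTCF1EWT 0 h and dnTCF1Emut 2 h lists scored only 50.63 and 53.65. Genes were compared by the highest score per list, as Euclidean distance in log2 over the 6 lists. Among 10698 other genes those most like TCF7L2 were SLC7A8 (distance 0.24), LOC284661 (0.246) and MYO10 (0.294). SLC7A8 scored 613.87 and 125.49 in the dnTCF1EWT lists at 2 and 9 h and had no dnTCF1Emut peak. MYO10 scored 521.51 and 171.57 there and 53.26 in the dnTCF1Emut 2 h list. These values pair a strong dnTCF1EWT 2 h peak with a lower one at 9 h, as at TCF7L2, and say nothing of whether peaks of a gene are at the same place.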

How the data were processed

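ChIP-seq peaks of FLAG-tagged dnTCF1EWT and dnTCF1Emut were analysed in 6 conditions, 1 list each. Per the labels and the submitters' processing notes, reads were processed with CASAVA 1.8.2 and aligned to hg19 with Bowtie2 2.0.0, peaks were called with MACS 1.3, and HOMER 3.16 annotated them. The deposited peak score is the MACS score and was not scaled for depth. The deposited GC content is a fraction, converted here to percent, and the authors counted the WRE, short Helper and Helper per peak. Each list was taken as pooled duplicates, as the study describes, although the labels speak of a first replicate with runs (a) and (b). With 1 list per condition there was no replicate error and no test. The interval deposits with the same peaks served to check positions and scores. Depth is unknown, input libraries were not analysed here, and the mutant input was, per its label, sequenced more deeply.

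Peaks were taken by HOMER gene name. Ranks were by descending score, ties sharing the best rank. Overlap meant 1 or more shared bases. Shares have exact Clopper-Pearson 95% intervals, which cover counting error only. An Alu peak is one whose center HOMER's detailed annotation places in an Alu. The rest of a peak was not compared with repeats. Named genes were the 5 members, context genes in the first 1000 peaks of the dnTCF1EWT 2 h list, and the 3 genes closest to a member with peaks in 3 or more lists, a list without a peak being set to its lowest score. The members and gene lists were chosen with earlier results of these data known. Alternatives were other score, distance and overlap limits. Python 3.11.15, pandas 2.3.3 and SciPy 1.17.1 were used, and overlap and ranking were tested on simulated data. Promoter windows came from RefSeq (GRCh38.p14). All 5 members matched by symbol. Peak sequences are not printed, since no hg19 genome was used here.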

Additional observations from a re-analysis of the deposited data

Results flagged for a closer look

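From 2 to 9 h the number of TCF4 peaks changed by 3 in dnTCF1EWT cells (from 0 to 3) and by -4 in dnTCF1Emut cells (from 4 to 0). The 2 lines moved in opposite directions, with 1 pooled list for each line and time, and the difference was not tested. All 3 dnTCF1EWT peaks were Alu peaks scoring at most 62.6, and the dnTCF1EWT list was larger at 9 h (12996 peaks against 5585) while the dnTCF1Emut list was smaller (354 against 1883). The part of list size in this was not tested.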

How the results depend on the processing

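Counts of weak peaks depended on the score limit. At a score above 67, and also at 100 or more, the LEF/TCF count was 0 instead of 1 in dnTCF1EWT cells at 0 h, 2 instead of 5 at 2 h, 2 instead of 7 at 9 h, and 0 instead of 1 in dnTCF1Emut cells at 2 h. The TCF4 count was then 0 instead of 3 in dnTCF1EWT cells at 9 h, and in dnTCF1Emut cells at 2 h it was 3 above 67 and 2 at 100 or more, instead of 4. The whole dnTCF1EWT lists kept 257 of 1907, 1802 of 5585 and 2649 of 12996 peaks above 67 at 0, 2 and 9 h. At 100 or more they kept 926 at 2 h and 565 at 9 h. The dnTCF1Emut 2 h list kept 1229 of 1883 above 67. Within 100 kb of the TSS, the LEF/TCF counts were 0, 3 and 7 in dnTCF1EWT cells and 0 in dnTCF1Emut cells at 2 h, and TCF4 kept 2 of its 4 dnTCF1Emut peaks. Without Alu peaks, an alternative chosen after seeing the data, dnTCF1EWT counts were 0, 2 and 2 for LEF/TCF genes and 0 for TCF4 at 9 h. The share of dnTCF1EWT 2 h member peaks with a 9 h peak was 100% (2 of 2, exact interval 15.8 to 100%) instead of 40.0% in the first 1000 peaks, and also without Alu peaks. As rank in percent of the list, the TCF7L1 change from 2 to 9 h turned from lower to higher, by 4.74 points, of which an unchanged rank of 389 in the longer 9 h list would alone give 3.97. WRE per kb was planned too, but with 0 WREs at the members it can only be 0. The other 22 alternative values (18 planned, 4 added) kept their direction, and the counts among them differed by at most 1 peak. Some of them could not change. Since 0 of 5 dnTCF1EWT 2 h member peaks held a WRE or overlapped a dnTCF1Emut 2 h peak, subsets of these peaks could only give 0. A stricter overlap with dnTCF1Emut peaks could also only give 0. No paired analysis was possible because each condition had 1 pooled list. Scores were not scaled for depth, which is unknown, so list sizes and scores of different lists are not on a shared scale.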

Other observations

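E proteins, to which TCF4 belongs, and the ID proteins that inhibit them were read as a list of 6 other genes. In dnTCF1EWT cells 2 of the 6 (TCF12 and TCF3) had a peak at 0 h, 3 at 2 h and 4 at 9 h (13 peaks), against 6.15%, 15.9% and 30.8% of protein-coding symbols. In dnTCF1Emut cells 0 did at 0 h, 3 at 2 h and 0 at 9 h, against 2.22%, 5.43% and 1.11%. ID2, an inhibitor of E proteins, had 2 dnTCF1EWT 2 h peaks in the first 1000, with ranks of 535 and 824 and 1 WRE each. The first, at -70421 bp from the TSS, scored 159.47 at 2 h and 223.0 at 9 h in dnTCF1EWT cells. In dnTCF1Emut cells at 2 h it scored 96.05. Its dnTCF1EWT score was thus higher at 9 h than at 2 h, where those of TCF7L2 and TCF7L1 were lower. Such a rise was not rare, since the upper quartile of the log2 ratio over all 833 shared regions was 0.15. A further ID2 peak, at -4203 bp, scored 59.81 at 2 h and 206.38 at 9 h. TCF3, the E-protein gene whose symbol is also a protein name of TCF7L1, scored at most 62.6 in any list. TCF12 and ID4 each had a dnTCF1Emut 2 h peak outside Alu repeats that overlapped no dnTCF1EWT peak at 2 or 9 h. These scored 53.1 and 70.17. Both traits were usual in that list, where 0.478% of peaks were Alu peaks. Only 27.9% of the list overlapped a dnTCF1EWT 2 h peak and 13.6% a dnTCF1EWT 9 h peak. In dnTCF1EWT cells TCF12 scored at most 65.5 and ID4 at most 97.71, both at 9 h and in an Alu.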
